A study of Mus musculus with 12 samples.

Results

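The data described here ask how inhibition of lipolysis changes the response of white adipocytes to a β-adrenergic agonist. The measure is the interaction of the 2 treatments: the log2 change with isoproterenol (ISO) in cells given lipase inhibitors (Lip+ISO minus Lip), minus the log2 change in cells without inhibitors (ISO minus vehicle). A positive interaction means a higher response with the inhibitors and a negative one a lower response. All 12 libraries of the series enter it, in 4 groups of 3: vehicle (DMSO), ISO, Lip and Lip+ISO. Of the 20295 genes in the count table, 13543 had enough counts to be tested. The cells were mature adipocytes floated from collagenase-digested epididymal fat of lean male C57/BL6J mice, whose age is not in the sources used here, and were embedded in a hydrogel at 50000 cells per well. At day 2 of culture they received vehicle or inhibitors and subsequently ISO for 3 h or none. No group carries a genetic change in the labels. The study's methods name Atglistatin as an inhibitor of ATGL (Pnpla2). They name CAY10499 as an inhibitor of HSL (Lipe) and of the monoacylglycerol lipase MGL (Mgll). The inhibitors are thus drugs, and the lipase genes are intact. The sample titles and the study's results text name ISO as the stimulus, while a figure legend of the study names SR-3420 for these cells, and the titles were followed.

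β-adrenergic agonists raise cAMP in adipocytes, and protein kinase A then acts along separate branches. It activates transcription factors of the CREB family, and it releases the lipases ATGL and HSL onto the lipid droplet, where they split triglycerides into fatty acids and glycerol. Fatty acids are fuel, ligands of the nuclear receptors of the PPAR family and building blocks for other lipids. The lipases that the inhibitors block lie downstream of the receptor and cAMP. For brown adipocytes, the study proposes that inhibited lipolysis raises protein kinase A signaling, possibly through more cAMP. The level of cAMP in these cells is not part of the data. The interaction sorts genes by how their response to the agonist differed when lipolysis was inhibited.

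Total counts per library ran from 22632220 to 43707557, and 3 counts, the limit that a count of 0 allows, came to 0.0686 to 0.133 CPM (counts scaled to a library of 1000000). This limit covers counting error only. On the third principal component Lip replicate 3 lay apart from the others. Adipocyte markers (Adipoq, Plin1, Fabp4 and 17 others) summed to between 44800 and 72722 CPM in all 12 libraries. Markers of other cell types were low, but those of fibroblasts and preadipocytes moved with the groups. The 15 fibroblast and preadipocyte markers summed to 650, 1004 and 570 CPM with vehicle and to 1122, 1521 and 1442 with ISO, but to 787, 832 and 723 with Lip and 705, 981 and 780 with Lip+ISO. The ISO libraries were thus above all others. In such bulk samples, fewer cells of a type and less RNA per cell cannot be told apart. The study states 3 independent experiments, and the labels do not say which cultures shared animals, so p-values measure the spread between these libraries.

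The interaction passed for 220 of 13543 genes (1.62%) by edgeR's quasi-likelihood test, at a Benjamini-Hochberg adjusted p at or under 0.05. It was positive for 122 genes (0.901%) and negative for 98 (0.724%). With a size of at least 1 log2 unit as well, 55 genes (0.406%) were called higher and 46 (0.34%) lower. At the edge of the threshold stood Prr5l (-1.03, edgeR adjusted p = 0.0498) on the inner side and Arap1 (-0.74, edgeR adjusted p = 0.0503) on the outer. The 220 genes were sorted by their separate responses to ISO, which share no library. The response was strengthened in 87 genes, that is, it passed in both states with the same sign and was larger with the inhibitors. It was gained in 67, where it passed only with the inhibitors, lost in 38, where it passed only without them, reversed in 21, where both passed with opposite signs, and weakened in 7. Strengthened and gained responses thus made up most of the 220 genes. Of the 98 genes with a negative interaction, 27 had lost a response, 7 had a weakened one and 15 a reversed one, while 20 fell more with the inhibitors and 29 fell only with them.

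**Figure D1:**
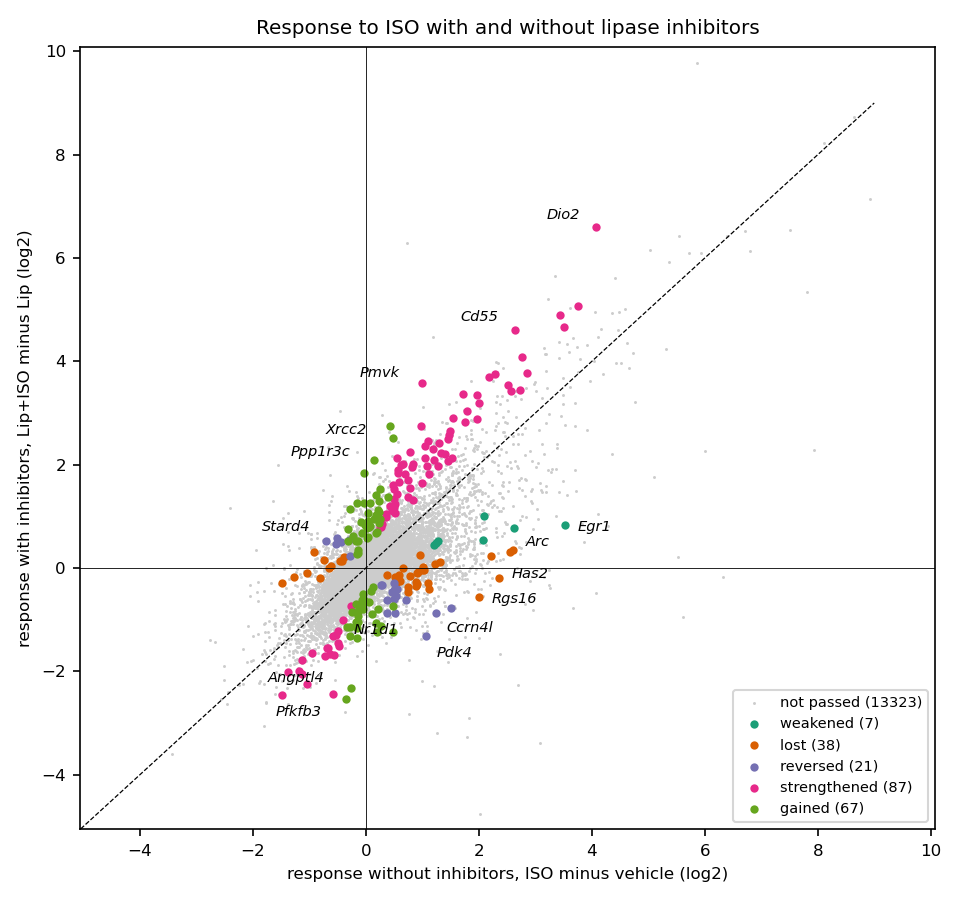
Response to ISO without inhibitors (ISO minus vehicle, horizontal axis, log2) against the response with inhibitors (Lip+ISO minus Lip, vertical axis, log2) for all 13543 tested genes. Coloured points are the 220 genes that passed the interaction test, by class, and grey points are all other tested genes. The dashed line marks equal responses. Dio2 and Pmvk stand above the line and Egr1 and Pdk4 below it.

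The number of genes depended on the libraries. All 220 genes kept the sign of their interaction in each of the 12 fits without 1 library. They also kept it in each of the 3 fits without 1 replicate number in every group. These fits reuse most of the libraries by which the 220 were chosen, so a kept sign is no further test. Of the 220, 104 passed in all 12 single-library fits. Called genes numbered 40 to 66 higher and 30 to 73 lower in the single-library fits. Dropping vehicle replicate 1 gave 30 lower calls, dropping vehicle replicate 2 gave 73 and dropping ISO replicate 3 gave 30, and those of the other 9 fits lay within 1.5 times of 46. Genes that passed were 63 higher and 53 lower without vehicle replicate 3, 64 and 55 without ISO replicate 2, 74 and 50 without ISO replicate 3, 67 and 55 without Lip replicate 2 and 93 and 64 without Lip+ISO replicate 3. They were 83 and 51 without vehicle replicate 1, 85 and 56 without Lip replicate 1 and, at the other end, 177 and 151 without Lip+ISO replicate 1. Without Lip replicate 3, the library that lay apart, 62 genes were called higher and 40 lower. Dropping a replicate number from all 4 groups leaves 2 libraries in each, and then 54 higher and 35 lower calls remained without replicate 1, 6 and 9 without replicate 2 and 17 and 17 without replicate 3. Only 10 genes passed in all 15 of these fits. They were Egr1, Ccrn4l, Angptl4, Nr1d1, Mex3b and Cttnbp2nl with a negative interaction, and Pmvk, Socs3, Dusp16 and Isy1 with a positive one, a set picked by this stability after the values had been seen.

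The differences lay mainly among the libraries that had received ISO. Comparing Lip+ISO with ISO directly, 590 of all tested genes (4.36%) were higher and 621 (4.59%) lower at the same threshold (edgeR). All 55 genes called higher in the interaction were among the former and all 46 called lower among the latter. Their medians of Lip+ISO minus ISO were 1.27 and -1.31. Without the agonist, the medians of Lip minus vehicle were -0.01 and -0.05. In that comparison 7 genes of all tested (0.0517%) passed, with 0 of the 55 and 1 of the 46 among them (edgeR). At an unadjusted p under 0.05 (edgeR) these counts were 7 and 15, and by DESeq2 with adjustment 0 and 6. Some of the 46 thus moved with the inhibitors alone. The share of all tested genes was not counted at these settings, so these counts have no background to be read against. The 1 gene was Pdk4, which fell by 1.66 on the log2 scale with the inhibitors alone (edgeR adjusted p = 0.0142). Both comparisons share libraries with the interaction, so they show where it arose and are no further test of it.

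**Figure D2:**
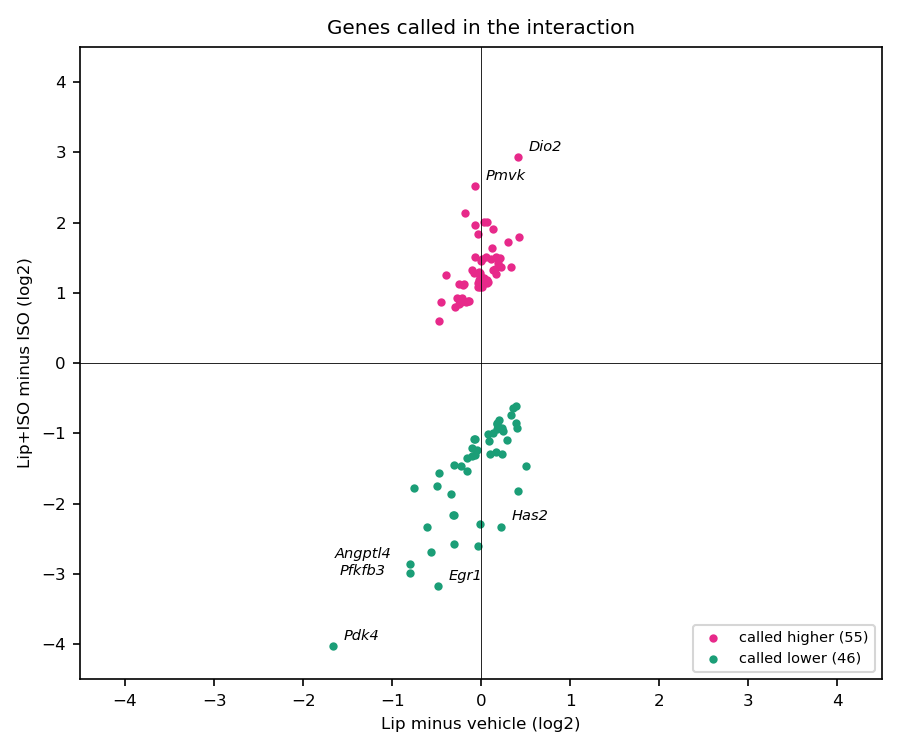
Log2 change with the inhibitors in unstimulated cells (Lip minus vehicle, horizontal axis) against that in stimulated cells (Lip+ISO minus ISO, vertical axis) for the 55 genes called higher and the 46 called lower in the interaction. The points stretch along the vertical axis, and Pdk4 is farthest to the left.

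To ask whether responsive genes as a whole lost or kept their response, genes were chosen by the response to ISO averaged over both states, which weights the 4 groups equally. By it 748 genes rose (5.52%) and 321 fell (2.37%) by at least 1 log2 unit. The median interaction of the rising genes was -0.01, with a median response of 1.65 without and 1.59 with the inhibitors. Among them, 57 (7.62%) rose more with the inhibitors and 8 (1.07%) rose less. These 8 were Egr1, Arc, Has2, Inhba, Mex3b, Plk3, Spin4 and Chka, and they include an immediate early transcription factor, a hyaluronan synthase and the choline kinase that starts phosphatidylcholine synthesis. The counts were 5 to 48 and 3 to 8 in the fits without 1 replicate number, fewest without replicate 2, where they were 5 and 3. The falling genes had a median interaction of -0.27, from -1.16 without to -1.37 with the inhibitors. Of these, 15 (4.67%) fell more with the inhibitors and 0 fell less (edgeR), with 6 at an unadjusted p under 0.05 and 1 by DESeq2. In all, an interaction passed for 65 of the 748 rising and 15 of the 321 falling genes. Of all tested genes it passed for 1.62%. Most genes chosen by the averaged response thus had no interaction that passed, but the share that did was above that of all genes. The choice takes in genes such as Arc and Has2 whose response did not pass with the inhibitors.

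Reversed responses were seen for genes of fuel choice, signaling and the clock. Among the called genes, 8 rose without and fell with the inhibitors. Pdk4, a kinase that shuts off pyruvate dehydrogenase and so spares glucose (mm9 chr6:5433351-5446278, minus strand), stood at 352, 383 and 530 CPM with vehicle, 883, 800 and 956 with ISO, 126, 113 and 162 with Lip and 42.7, 45.8 and 72.5 with Lip+ISO. No 2 of these groups overlapped, and ISO lay highest while Lip+ISO lay lowest. The response was 1.06 ± 0.21 (SE) on the log2 scale without and -1.32 ± 0.21 with the inhibitors, an interaction of -2.38 ± 0.29 (edgeR adjusted p = 0.00171), and without replicate 2 of every group the adjusted p was 0.0759.

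Ccrn4l, which encodes the rhythmically expressed phosphatase nocturnin (mm9 chr3:51028369-51055576, plus strand), had the same order of groups, with 96.9, 104 and 125 CPM with vehicle, 283, 224 and 269 with ISO, 65.1, 68.4 and 86.7 with Lip and 39.7, 37.6 and 43.3 with Lip+ISO. It rose by 1.25 without and fell by 0.87 on the log2 scale with the inhibitors, an interaction of -2.12 ± 0.19 (edgeR adjusted p = 0.000177). Nr1d1, which encodes the heme-binding clock repressor Rev-erbα (mm9 chr11:98629246-98636691, minus strand), showed tight replicates at 150, 153 and 150 CPM with vehicle, 229, 207 and 212 with ISO, 141, 130 and 135 with Lip and 79.6, 67.8 and 75.3 with Lip+ISO. All ISO libraries lay above and all Lip+ISO libraries below the other 6, and the interaction was -1.39 ± 0.11 (edgeR adjusted p = 5.0e-05).

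Map3k8, a kinase that activates the MEK and ERK kinases, was lower in level, at 6.92, 8.06 and 7.36 CPM with vehicle, 21.1, 18.3 and 24 with ISO, 5.84, 8.92 and 7.39 with Lip and 3.03, 4.63 and 5.20 with Lip+ISO, and its interaction was -2.29 ± 0.29 (edgeR adjusted p = 0.0019). Plxna2, a semaphorin receptor, had 121, 129 and 139 CPM with vehicle, 163, 152 and 188 with ISO, 94.6, 87.3 and 92.1 with Lip and 44.8, 45.2 and 59 with Lip+ISO and an interaction of -1.25 ± 0.16 (edgeR adjusted p = 0.002). In both genes every Lip+ISO library lay below every library of the other groups. The metalloprotease gene Adam19 (-1.08, edgeR adjusted p = 0.0317), Nab2, a corepressor of EGR factors (-1.11, edgeR adjusted p = 0.0243), and Zfpm2, a cofactor of GATA factors (-1.33, edgeR adjusted p = 0.0439), were the others. These 3 were less secure. Adam19 missed the threshold in 7 of 12 single-library fits (without vehicle replicate 1, vehicle replicate 3, ISO replicate 2, ISO replicate 3, Lip replicate 1, Lip replicate 2 and Lip+ISO replicate 3), with an adjusted p of up to 0.0927. Nab2 missed it in 6 (without vehicle replicate 1, vehicle replicate 3, ISO replicate 2, ISO replicate 3, Lip replicate 2 and Lip replicate 3), up to 0.0739, and its span overlaps that of Stat6, so that reads of the pair cannot be told apart. Zfpm2 missed it in 10, all but those without vehicle replicate 2 and ISO replicate 1, up to 0.12.

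The opposite reversal, a fall without and a rise with the inhibitors, was called for 2 genes. Stard4, a carrier of sterols between membranes, had 14.5, 17 and 21.6 CPM with vehicle, 11.3, 12.8 and 13.2 with ISO, 13.2, 15.2 and 14.8 with Lip and 19.1, 20.8 and 25.2 with Lip+ISO. It missed the threshold in 6 single-library fits (without vehicle replicate 3, ISO replicate 1, ISO replicate 2, ISO replicate 3, Lip replicate 1 and Lip replicate 2), with an adjusted p of up to 0.0592, and its interaction with all libraries was 1.10 ± 0.21 (edgeR adjusted p = 0.0234). The RIKEN gene 2810474O19Rik had 63.7, 69.2 and 63.7 CPM with vehicle, 35.3, 41 and 44.5 with ISO, 77.3, 66.6 and 80.4 with Lip and 104, 91.3 and 129 with Lip+ISO, an interaction of 1.23 ± 0.18 (edgeR adjusted p = 0.00387), and passed in all 12 of those fits. ISO was the lowest and Lip+ISO the highest group in 2810474O19Rik without overlap.

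**Figure D3:**
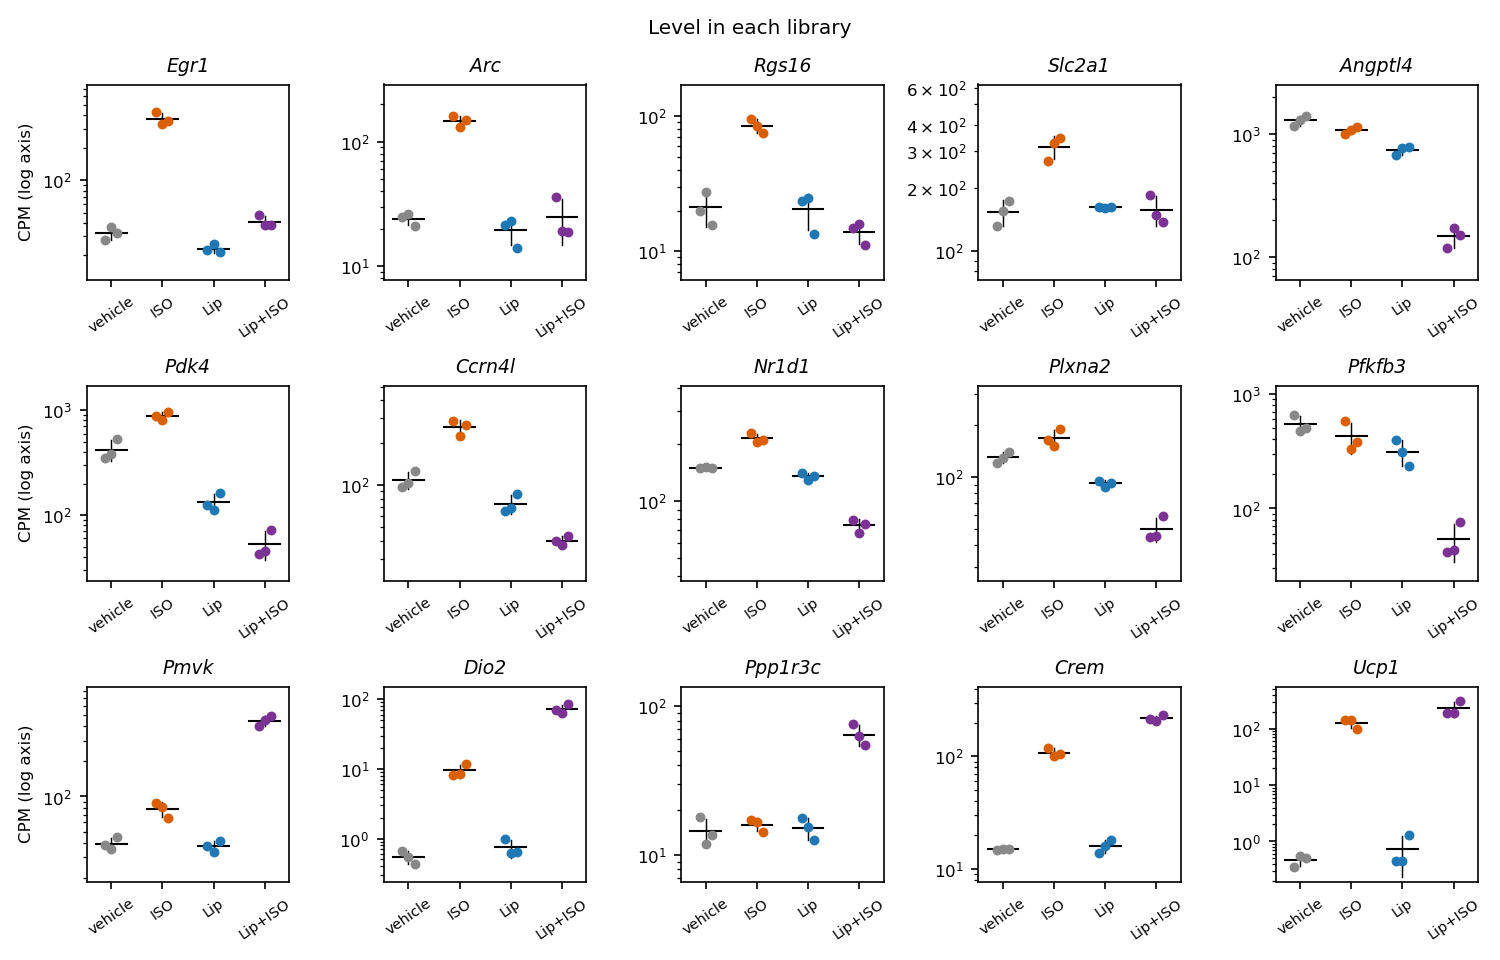
Level of 15 genes in each of the 12 libraries, in CPM on a logarithmic axis, with the group mean (horizontal bar) and SD (vertical bar, n = 3). The top row has genes whose rise was weakened or lost, and Angptl4, whose fall passed only with the inhibitors. The second row has genes that reversed, and Pfkfb3, which also fell only with the inhibitors. The bottom row has genes with a larger or new rise, together with Ucp1, which had no called interaction.

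Immediate early genes are switched on within minutes by growth factor, ERK and cAMP signals, and this group carried the largest weakened response. Of the 43 genes tested from this list, 7 passed with a negative and 1 with a positive interaction. That is 18.6% against 1.62% of all genes, the median interaction was -0.44 against -0.02 for all genes, and 35 of the 43 lay below 0. Egr1, a zinc finger factor induced by serum and ERK signals, had 27.6, 36.9 and 32.5 CPM with vehicle, 431, 330 and 354 with ISO, 22.2, 25.6 and 21.3 with Lip and 47.1, 38.1 and 38.1 with Lip+ISO. It rose by 3.52 ± 0.14 without the inhibitors and by 0.83 ± 0.14 with them, so the rise was still measurable but most of it was gone, with an interaction of -2.69 ± 0.19 (edgeR adjusted p = 3.2e-05).

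Arc, a synaptic cytoskeleton gene that is a classical immediate early gene, had 24.9, 26.4 and 20.9 CPM with vehicle, 160, 132 and 149 with ISO, 21.5, 23 and 13.9 with Lip and 36.2, 19.2 and 18.9 with Lip+ISO. It rose by 2.61 without the inhibitors and its change with them was 0.35 (edgeR adjusted p = 0.33), an interaction of -2.26 ± 0.34 (edgeR adjusted p = 0.00434). Myc, a transcription factor that drives cell growth, had a response of 0.27 without the inhibitors that did not pass (edgeR adjusted p = 0.0738). With them it fell (-1.12), with 22.1, 29.3 and 29.1 CPM in Lip+ISO against 50.4 to 68.5 CPM over the other 9 libraries. The interaction of Myc was -1.39 ± 0.15 (edgeR adjusted p = 0.000761).

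The Sprouty genes encode feedback inhibitors of ERK signaling. Spry4 had 134, 128 and 120 CPM with vehicle, 192, 163 and 186 with ISO, 74.4, 85.6 and 70.1 with Lip and 64.6, 64 and 58.5 with Lip+ISO, so that the inhibitors lowered it already without the agonist (Lip minus vehicle -0.73, edgeR adjusted p = 0.0142) and more with it. Its response went from 0.50 to -0.30, and its interaction of -0.80 ± 0.13 (edgeR adjusted p = 0.00781) passed in all 12 single-library fits. Spry1 had -1.12 (edgeR adjusted p = 0.0282), Nab2 is given above, and Klf6, a zinc finger factor, had -0.46 (edgeR adjusted p = 0.0346). Klf10, a factor induced by TGF-β, was the member that passed upward (0.48, edgeR adjusted p = 0.0459). Spry1, Klf6 and Klf10 missed the threshold in 9, 10 and 11 of 12 single-library fits, Spry1 in all but those without ISO replicate 1, Lip+ISO replicate 1 and Lip+ISO replicate 2, Klf6 in all but those without Lip+ISO replicate 1 and Lip+ISO replicate 3, and Klf10 in all but that without ISO replicate 1.

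Egr2, Egr3 and Fos had negative values that did not pass by edgeR and did by DESeq2. The interaction was -1.27 for Egr2 (edgeR adjusted p = 0.13), -1.05 for Egr3 (edgeR adjusted p = 0.12) and -1.03 for Fos (edgeR adjusted p = 0.0594), and the DESeq2 adjusted p was 0.0203, 0.0236 and 0.00631. Fos stood at 7.52, 9.40 and 10.1 CPM with vehicle, 58.4, 36.5 and 48 with ISO, 5.63, 6.99 and 7.25 with Lip and 18.8, 17 and 15.8 with Lip+ISO, and its Lip+ISO libraries lay below all ISO and above all unstimulated libraries. Not all early genes shared this. The orphan nuclear receptors Nr4a1, Nr4a2 and Nr4a3, direct CREB targets, rose by 4.42, 4.46 and 6.72 without and by 3.96, 4.62 and 6.52 with the inhibitors, with interactions of -0.46 ± 0.37, 0.16 ± 0.38 and -0.20 ± 0.44 (edgeR adjusted p = 0.64, 0.9 and 0.89). Jund and the ERK phosphatase Dusp4, the members with the most counts among those that did not pass, had 0.24 ± 0.23 and 0.67 ± 0.20 (edgeR adjusted p = 0.7 and 0.13, DESeq2 adjusted p for Dusp4 = 0.0260).

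Other large negative interactions were lost rises. Rgs16, which speeds the shut-off of G protein signals (mm9 chr1:155587483-155592598, plus strand), had 20.0, 27.7 and 15.7 CPM with vehicle, 95, 84.9 and 74.9 with ISO, 23.6, 24.6 and 13.5 with Lip and 14.8, 15.9 and 11.1 with Lip+ISO, so that only ISO stood above the rest. Its interaction was -2.57 ± 0.34 (edgeR adjusted p = 0.00245). Mex3b, an RNA-binding protein gene, had 9.25, 10.2 and 8.14 CPM with vehicle, 56.5, 46.1 and 60.2 with ISO, 10.4, 11.8 and 14.6 with Lip and 17.2, 14.9 and 13.8 with Lip+ISO and an interaction of -2.24 ± 0.21 (edgeR adjusted p = 0.000237). Has2, which makes hyaluronan for the extracellular matrix, had 1.83, 1.59 and 1.61 CPM with vehicle, 8.19, 7.28 and 10.5 with ISO, 1.89, 2.12 and 1.88 with Lip and 2.14, 1.89 and 1.11 with Lip+ISO and an interaction of -2.55 ± 0.35 (edgeR adjusted p = 0.00318). In each of these 3 genes, the 3 ISO libraries lay above the other 9.

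Has2 and the collagen gene Col1a2 are expressed by fibroblasts as well, and the marker levels move with them. Col1a2 passed with an interaction of -1.03 ± 0.23 (edgeR adjusted p = 0.0455), but in only 2 of 12 single-library fits, those without vehicle replicate 2 and ISO replicate 1. It was the 1 of 15 fibroblast and preadipocyte markers that passed, while 14 of the 15 lay below 0 and the list's median was -0.73. The medians were -0.40 for 13 macrophage, -0.42 for 15 endothelial and -0.96 for 11 mesothelial markers, and 0 of these markers passed (edgeR, with 1 macrophage, 0 endothelial and 1 mesothelial marker at an unadjusted p under 0.05, and 0 by DESeq2). Summed macrophage markers were 68.3, 72.4 and 57.6 CPM with vehicle, 117, 140 and 175 with ISO, 65.8, 66.8 and 62.2 with Lip and 130, 99.6 and 76.9 with Lip+ISO. Endothelial markers ran from 205 to 373 CPM, 426 to 757, 113 to 343 and 155 to 435 in the same order. Mesothelial markers were at 49.2 to 105, 110 to 147, 33.9 to 143 and 67.7 to 99.3 CPM. Groups overlapped in part for macrophage, endothelial and mesothelial markers. For an interaction of 1 library per group, the SD of the list median was 0.743 for fibroblast and preadipocyte and 0.448 for macrophage markers. It was 1.29 for endothelial and 1.37 for mesothelial markers. Lymphocyte markers had 2 genes tested, with a median of -0.10, neither of them passed by edgeR, at an unadjusted p under 0.05 or by DESeq2, and summed to 1.30 to 5.05 CPM. Adipocyte markers had a median of 0.13, and of 20 tested 1 passed. This was Pparg, the nuclear receptor that drives adipocyte identity, which fell without the inhibitors (-0.46) and did not pass with them (0.13, edgeR adjusted p = 0.31), with an interaction of 0.58 ± 0.12 (edgeR adjusted p = 0.0274). Pparg missed the threshold in 8 single-library fits, passing only without vehicle replicate 2, ISO replicate 1, Lip+ISO replicate 1 or Lip+ISO replicate 2. The part of other cell types in the negative interactions was not tested.

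Fatty acids are ligands of PPARs. Of 45 PPAR target genes tested, 2 passed (4.44%, against 1.62% of all genes). Both were negative and large, while the median of the list was 0.10. With a positive interaction 0 passed (edgeR, 1 at an unadjusted p under 0.05 and 1 by DESeq2). Besides Pdk4 this was Angptl4, a secreted inhibitor of lipoprotein lipase (mm9 chr17:33911845-33918520, minus strand), at 1169, 1314 and 1414 CPM with vehicle, 1003, 1088 and 1143 with ISO, 678, 769 and 794 with Lip and 118, 175 and 153 with Lip+ISO. Its response to ISO without the inhibitors did not pass (-0.27 ± 0.13, edgeR adjusted p = 0.14), and with the inhibitors it fell (-2.33 ± 0.14), an interaction of -2.06 ± 0.19 (edgeR adjusted p = 0.000195).

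Acyl-CoA thioesterases and Plin2, which coats lipid droplets, had negative interactions that did not pass by edgeR. Acot4 had 19.9, 17.6 and 20.6 CPM with vehicle, 45.6, 33.5 and 40.9 with ISO, 9.21, 9.46 and 7.94 with Lip and 10.8, 10.9 and 13.6 with Lip+ISO. Its level in Lip was below vehicle in every library, and its response was 1.04 without and 0.41 with the inhibitors (interaction -0.64 ± 0.19, edgeR adjusted p = 0.14). Acot3 responded by 2.24 and 1.32 (interaction -0.92 ± 0.37, edgeR adjusted p = 0.28) and Plin2 by 0.61 and 0.11 (interaction -0.50 ± 0.21, edgeR adjusted p = 0.3). The inhibitors lowered Acot4 already without the agonist (Lip minus vehicle -1.13, edgeR adjusted p = 0.0142), so that a drop which is large in stimulated cells (-1.77) gave a smaller interaction. Ppara itself had -0.95 ± 0.28 (edgeR adjusted p = 0.13, DESeq2 adjusted p = 0.0335), with 5.01, 6.89 and 10.8 CPM in Lip+ISO against 13.9 to 21.1 in the other 9 libraries. The targets with the most counts, Fabp4 and Lpl, had 0.21 and 0.08 (edgeR adjusted p = 0.69 and 0.9).

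Among genes of glucose use, the interaction passed for a transporter and a regulator. Of 28 tested genes 2 passed, both negative (7.14%, against 1.62% of all genes, median -0.06). With a positive interaction 0 passed (edgeR, 4 at an unadjusted p under 0.05 and 1 by DESeq2). Pfkfb3, which makes the sugar bisphosphate that drives phosphofructokinase (mm9 chr2:11393058-11475556, minus strand), had 656, 478 and 501 CPM with vehicle, 574, 331 and 379 with ISO, 396, 309 and 235 with Lip and 42.2, 43.3 and 76.7 with Lip+ISO. The Lip+ISO libraries reached 76.7 CPM at most, while no other library was below 235, and the interaction was -2.19 ± 0.38 (edgeR adjusted p = 0.0114). Slc2a1, the glucose transporter GLUT1, rose only without the inhibitors, at 131, 154 and 173 CPM with vehicle, 270, 328 and 345 with ISO, 162, 161 and 162 with Lip and 185, 148 and 137 with Lip+ISO, with an interaction of -1.08 ± 0.18 (edgeR adjusted p = 0.0105). The glycolytic enzymes Aldoa and Pkm rose in both states, by 0.31 and 0.45 without and 0.29 and 0.49 with the inhibitors, with interactions of -0.02 ± 0.11 and 0.05 ± 0.21 (edgeR adjusted p = 0.96 and 0.95).

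Pfkfb3 and Slc2a1 are also on the list of hypoxia responses, of which 5 of 25 tested passed, 4 negative and 1 positive. This is 20%, against 1.62% of all genes, with a median of -0.07. The others with a negative value were Hif1a, the oxygen-sensitive factor itself (-0.72 ± 0.16, edgeR adjusted p = 0.0372), and Loxl2, a collagen crosslinker (-0.77 ± 0.17, edgeR adjusted p = 0.0448). Hif1a passed in the single-library fits without Lip replicate 3 and without Lip+ISO replicate 1 only, and Loxl2 in those without vehicle replicate 2 and without ISO replicate 1 only. Mxi1, an antagonist of Myc, rose more with the inhibitors, at 65.3, 60.6 and 60.1 CPM in Lip+ISO against 33.4, 25.7 and 26.2 in ISO and 18.1 to 23.6 unstimulated (interaction 0.88 ± 0.15, edgeR adjusted p = 0.0111). Epas1, another oxygen-sensitive factor, had 0.18 ± 0.15 (edgeR adjusted p = 0.65) and did not pass.

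More genes passed with a positive interaction in the sterol synthesis list than in any of the other lists. Of 24 tested, 7 passed (29.2%, against 1.62% of all genes), all positive (0 negative, also at an unadjusted p under 0.05 and by DESeq2). In this list 23 of 24 values lay above 0 and the median was 0.60. Summed over the list, the level was 1847, 2009 and 2302 CPM with vehicle and 2155, 2095 and 2111 with ISO, then 1567, 1549 and 1754 with Lip and 3008, 2696 and 3253 with Lip+ISO. The Lip libraries were thus the lowest and the Lip+ISO libraries the highest. Without the inhibitors 2 members rose with ISO and 4 fell, and with them 12 rose and 0 fell (edgeR, adjusted p at or under 0.05 for each response).

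Pmvk, which encodes phosphomevalonate kinase of the mevalonate pathway (mm9 chr3:89263040-89272931, plus strand), had the largest positive interaction of all called genes. Its level was 38.5, 35.4 and 44.5 CPM with vehicle, 87.7, 81.9 and 65.5 with ISO, 37.9, 33.4 and 41.2 with Lip and 404, 454 and 488 with Lip+ISO. The unstimulated groups overlapped, ISO stood somewhat higher and Lip+ISO far above, with responses of 0.99 ± 0.13 and 3.58 ± 0.14 and an interaction of 2.59 ± 0.18 (edgeR adjusted p = 3.2e-05). The preceding enzyme, mevalonate kinase (Mvk), had 38.2, 31.5 and 35.9 CPM with vehicle, 96.8, 79.8 and 65 with ISO, 38.3, 34.8 and 37.8 with Lip and 165, 185 and 200 with Lip+ISO, an order of groups like that of Pmvk, and an interaction of 1.12 ± 0.18 (edgeR adjusted p = 0.00855).

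Later steps included rises that passed only with the inhibitors. Cyp51, the lanosterol demethylase, had 96.9, 108 and 114 CPM with vehicle, 128, 117 and 125 with ISO, 94.9, 94.1 and 104 with Lip and 229, 186 and 223 with Lip+ISO (interaction 0.91 ± 0.13, edgeR adjusted p = 0.00394). Hsd17b7, a sterol keto-reductase, had 64, 78.7 and 82.1 CPM with vehicle, 80.9, 83.1 and 98.9 with ISO, 82.3, 73.4 and 81.8 with Lip and 203, 166 and 218 with Lip+ISO (interaction 1.08 ± 0.17, edgeR adjusted p = 0.00731). Both had every Lip+ISO library above all others. Msmo1, a methylsterol oxidase (0.83, edgeR adjusted p = 0.0394), and Mvd, the mevalonate pathway's decarboxylase (0.60, edgeR adjusted p = 0.0495), passed narrowly, Mvd with a fall that passed only without the inhibitors (-0.38). Stard4, described above, was the seventh member that passed. Msmo1 passed in 3 of 12 single-library fits, without vehicle replicate 1, Lip+ISO replicate 1 or Lip+ISO replicate 2, and Mvd in 2, without vehicle replicate 2 or Lip+ISO replicate 2. Insig1, which holds back SREBP factors and is itself a sterol-responsive gene, had 0.61 ± 0.19 (edgeR adjusted p = 0.14, DESeq2 adjusted p = 0.0339), and was lowered by the inhibitors alone (Lip minus vehicle -0.90, edgeR adjusted p = 0.0331).

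**Figure D4:**
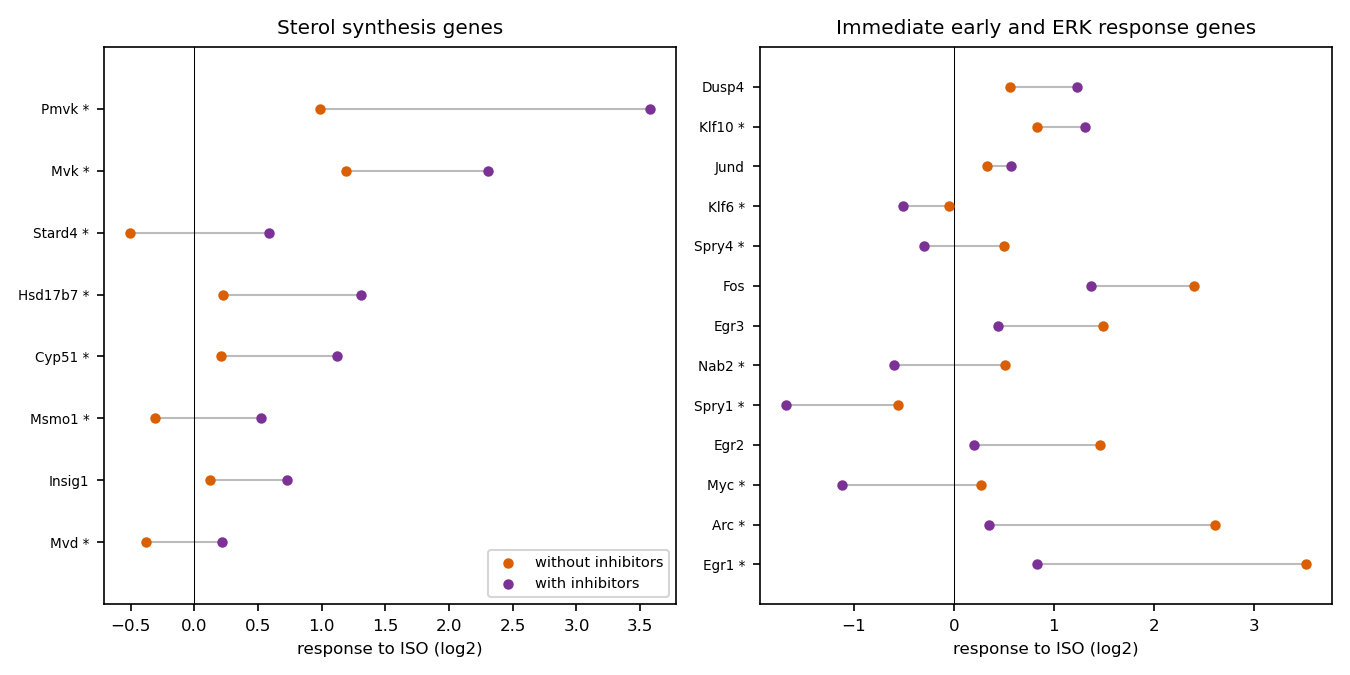
Response to ISO (horizontal axis, log2) without inhibitors (orange) and with inhibitors (purple) for the genes of the sterol synthesis list (left) and of the immediate early and ERK response list (right) that are named in the text, sorted by interaction. An asterisk marks genes whose interaction passed. In the left panel every purple point lies to the right of the orange one, and in the right panel to its left for all genes shown but Jund, Klf10 and Dusp4.

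RefSeq promoter windows of the sterol list and of the genes that passed (250 bases before to 50 after an annotated start, GRCm38.p6) were searched on both strands for short motifs. Windows were found for 16 of the 24 sterol genes. CCAAT, the box bound by NF-Y, was in windows of 15 of the 16 genes (93.8%), against 42.6% of 10210 tested genes with a window. Counted by windows, it was in 78.9% of those of the sterol list and 37.4% of all 32851. Of genes that passed, CCAAT was in 42% of those with a positive and 54.4% of those with a negative interaction. By windows these shares were 39.2% and 36.8%, against 37.2% for tested genes, so the negative set had no excess per window. TCACNCCAC, the sterol regulatory element, was in 0 of these 16 and in 1.44% of the tested genes. TGACG, the short site of the cAMP response element, was in 46% of the 100 genes with a window that passed with a positive interaction, in 22.1% of 68 that passed with a negative one and in 34.4% of tested genes. The whole element TGACGTCA, which holds 1 such site on each strand, was in 6 of the 100 (6%), 0 of the 68 and 3.54% of tested genes. These are counts of letters within these windows, with no test. Other motifs were rare. The EGR site GCGTGGGCG was in 3% of the 100, 2.94% of the 68 and 1.37% of tested genes, and the CArG box in 2%, 1.47% and 1.6%. The 250 bases upstream of the start of 5 genes are shown, 3 of the sterol list, Dio2 as a strengthened gene with a whole cAMP response element, and Pdk4 as the largest reversed gene. Pmvk has 2 annotated windows. The window shown was chosen for most matches of TGACG and CCAAT, or as the first listed in a tie. Capitals mark TGACG and CCAAT on either strand (CGTCA and ATTGG are their complements).
Dio2 (GRCm38.p6 chr12:90739039-90739288, minus strand): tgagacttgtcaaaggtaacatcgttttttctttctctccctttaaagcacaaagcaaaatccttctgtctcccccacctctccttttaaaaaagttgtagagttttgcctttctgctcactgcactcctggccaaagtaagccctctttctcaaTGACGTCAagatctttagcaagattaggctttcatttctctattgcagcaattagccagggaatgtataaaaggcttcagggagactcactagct
Pmvk (GRCm38.p6 chr3:89454291-89454540, plus strand): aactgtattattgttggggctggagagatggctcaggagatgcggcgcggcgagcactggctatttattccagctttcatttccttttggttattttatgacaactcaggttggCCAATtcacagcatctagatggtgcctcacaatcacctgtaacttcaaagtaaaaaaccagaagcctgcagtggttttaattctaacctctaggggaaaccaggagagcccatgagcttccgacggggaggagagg
Mvk (GRCm38.p6 chr5:114444019-114444268, plus strand): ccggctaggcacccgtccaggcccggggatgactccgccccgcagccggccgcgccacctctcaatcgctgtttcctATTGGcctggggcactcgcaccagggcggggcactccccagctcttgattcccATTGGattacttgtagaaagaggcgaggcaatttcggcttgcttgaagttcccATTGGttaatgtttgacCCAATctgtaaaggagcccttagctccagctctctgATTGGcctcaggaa
Hsd17b7 (GRCm38.p6 chr1:169969206-169969455, minus strand): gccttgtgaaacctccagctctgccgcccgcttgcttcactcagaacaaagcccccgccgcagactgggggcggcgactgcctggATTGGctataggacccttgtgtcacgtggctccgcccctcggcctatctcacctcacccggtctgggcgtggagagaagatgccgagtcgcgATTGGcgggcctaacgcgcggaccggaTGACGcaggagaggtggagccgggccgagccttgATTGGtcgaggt
Pdk4 (GRCm38.p6 chr6:5496279-5496528, minus strand): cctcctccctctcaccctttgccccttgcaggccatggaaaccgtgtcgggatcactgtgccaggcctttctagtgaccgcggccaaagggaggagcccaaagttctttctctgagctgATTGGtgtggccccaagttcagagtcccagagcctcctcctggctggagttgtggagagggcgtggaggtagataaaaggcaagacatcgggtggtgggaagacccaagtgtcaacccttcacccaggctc
Mvk held 5 CCAAT boxes, Hsd17b7 3 and 1 TGACG, Pmvk and Pdk4 1 CCAAT box each, and Dio2 the whole cAMP element and no CCAAT box.

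Most genes activated by cAMP through CREB rose in both states, and those whose interaction passed rose more with the inhibitors. Of 41 tested, 33 rose without and 34 with the inhibitors, and the median response was 2.35 and 1.69. The interaction passed for 3, all positive (7.32%, against 1.62% of all genes, median -0.06). With a negative interaction 0 passed (edgeR, 2 at an unadjusted p under 0.05 and 1 by DESeq2). Dio2, the deiodinase that activates thyroid hormone and is a marker of brown fat activation (mm9 chr12:91962992-91976878, minus strand), had 0.663, 0.545 and 0.431 CPM with vehicle, 8.06, 8.55 and 11.8 with ISO, 0.996, 0.612 and 0.637 with Lip and 69, 63.5 and 84.4 with Lip+ISO. Its rise was 4.08 ± 0.24 without and 6.60 ± 0.23 with the inhibitors, an interaction of 2.52 ± 0.37 (edgeR adjusted p = 0.00392), and without replicate 2 of every group the adjusted p was 0.11. The unstimulated libraries were at about the level of 1 CPM or less, so each response rests on few counts there, while the ISO and Lip+ISO libraries did not overlap.

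The remaining pair are parts of the negative feedback on cAMP. Pde4d, a cAMP phosphodiesterase (mm9 chr13:109444371-110746177, plus strand), had 22.3, 20.5 and 24.3 CPM with vehicle, 192, 125 and 141 with ISO, 21.4, 23.8 and 20.8 with Lip and 407, 333 and 381 with Lip+ISO (interaction 1.31 ± 0.20, edgeR adjusted p = 0.00501). Crem, whose short product ICER represses CREB targets, had 14.7, 15 and 15.2 CPM with vehicle, 120, 100 and 104 with ISO, 13.8, 15.8 and 17.9 with Lip and 214, 206 and 232 with Lip+ISO (interaction 0.93 ± 0.14, edgeR adjusted p = 0.00495). In both genes the Lip+ISO libraries lay above the ISO libraries, which lay above all others. In the wider list of cAMP brakes (phosphodiesterases, RGS proteins, arrestins and the like), 3 of 40 passed, these 2 upward and Rgs16 downward. This is 7.5%, against 1.62% of all genes, with a median of -0.05. Gnas and Prkar2b, with the most counts of those that did not pass, had 0.07 ± 0.12 and -0.17 ± 0.22 (edgeR adjusted p = 0.86 and 0.8). Of the CREB targets that did not pass, Cebpb had -0.63 ± 0.25 and Pck1 0.06 ± 0.36 (edgeR adjusted p = 0.28 and 0.97).

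Dio2 was also the only one of 21 tested thermogenic genes to pass (4.76%, against 1.62% of all genes, median -0.03). Ucp1, the uncoupling protein of brown fat, went from 0.347, 0.545 and 0.509 CPM with vehicle to 142, 141 and 100 with ISO, and from 0.447, 0.451 and 1.33 with Lip to 192, 192 and 310 with Lip+ISO. The responses were 8.11 ± 0.37 and 8.22 ± 0.35, and the interaction of 0.11 ± 0.64 (edgeR adjusted p = 0.96) has a wide error because the unstimulated libraries hold few counts. Ppargc1a, the coactivator of mitochondrial biogenesis, rose by 3.79 and 4.04, with an interaction of 0.26 ± 0.26 (edgeR adjusted p = 0.72), and Slc25a20, the carnitine carrier, had 0.11 ± 0.11 (edgeR adjusted p = 0.72).

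Among the other large positive interactions were responses that appeared only with the inhibitors. Ppp1r3c, which targets a phosphatase to glycogen (mm9 chr19:36806221-36811094, minus strand), had 17.9, 11.9 and 13.5 CPM with vehicle, 17.3, 16.6 and 14.2 with ISO, 17.6, 15.4 and 12.6 with Lip and 75.4, 63.2 and 54.5 with Lip+ISO. Only Lip+ISO stood out, with an interaction of 1.94 ± 0.24 (edgeR adjusted p = 0.00178). Xrcc2, a gene of DNA repair by homologous recombination, had 9.19, 8.31 and 7.01 CPM with vehicle, 10.3, 11.2 and 12.6 with ISO, 8.14, 7.73 and 7.53 with Lip and 45.2, 30.3 and 57.7 with Lip+ISO (interaction 2.03 ± 0.28, edgeR adjusted p = 0.00273), and the RIKEN gene 2010003K11Rik had 23.7, 24 and 26.2 CPM with vehicle, 22.5, 27.5 and 22.1 with ISO, 24.7, 22 and 25 with Lip and 63.3, 78.6 and 115 with Lip+ISO (interaction 1.87 ± 0.25, edgeR adjusted p = 0.00258). In these 3 genes all libraries of the other groups lay below every Lip+ISO library.

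Stronger rises were seen for genes of the cell surface and of cytokine feedback. Cd55, which protects cells from complement, had 17.3, 14.9 and 17.5 CPM with vehicle, 97.7, 88.9 and 124 with ISO, 19.6, 16.1 and 15.3 with Lip and 305, 368 and 573 with Lip+ISO (interaction 1.97 ± 0.29, edgeR adjusted p = 0.00422). Socs3, a feedback inhibitor of cytokine and leptin receptors, had 10.4, 10.7 and 12.7 CPM with vehicle, 57.1, 48.1 and 48.5 with ISO, 11.6, 12.3 and 12.8 with Lip and 180, 145 and 153 with Lip+ISO (interaction 1.52 ± 0.15, edgeR adjusted p = 0.000418). Ackr3, a scavenging chemokine receptor, had an interaction of 1.65 ± 0.17 (edgeR adjusted p = 0.000418) with 51.7, 44.5 and 41.1 CPM in ISO and 111, 97.5 and 119 in Lip+ISO. Pmp22, a membrane protein known from myelin, had 1.58 ± 0.23 (edgeR adjusted p = 0.00422) with 81.7, 87.7 and 86.4 and 187, 229 and 313 CPM. In each of these 4 genes the Lip+ISO libraries lay above those of ISO, and those of ISO above the unstimulated ones. Lrrn4cl had 1.78 ± 0.35 (edgeR adjusted p = 0.0249), missing the threshold in 5 single-library fits (without vehicle replicate 2, vehicle replicate 3, ISO replicate 1, ISO replicate 2 and Lip replicate 1), up to 0.0688.

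The integrated stress response, by which Atf4 raises amino acid genes, had 2 of 31 tested genes that passed, both positive. This is 6.45%, against 1.62% of all genes, with a median of 0.01. Trib3, a pseudokinase that binds Akt, had 94.2, 95.1 and 93.2 CPM with vehicle, 171, 147 and 184 with ISO, 103, 103 and 83.4 with Lip and 446, 355 and 363 with Lip+ISO (interaction 1.18 ± 0.16, edgeR adjusted p = 0.00273). Cth, which makes cysteine, had 11.3, 12.6 and 13 CPM with vehicle, 18, 17.9 and 19.2 with ISO, 9.89, 10.9 and 10.2 with Lip and 32.7, 31.2 and 35 with Lip+ISO (interaction 1.09 ± 0.13, edgeR adjusted p = 0.0015). Both showed Lip+ISO above ISO above the unstimulated libraries without overlap. Atf4 had -0.13 ± 0.17, Atf5 0.13 ± 0.13 and the amino acid carrier Slc3a2 -0.08 ± 0.17 (edgeR adjusted p = 0.8, 0.7 and 0.89). Trib3 is the 1 of 22 insulin and FOXO1 response genes that passed as well (4.55%, against 1.62% of all genes, median -0.02). In that list Irs2, the insulin receptor substrate, had 0.97 ± 0.31 (edgeR adjusted p = 0.16, DESeq2 adjusted p = 0.0302) and the hexokinase Hk2 -0.19 ± 0.21 (edgeR adjusted p = 0.76).

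In the circadian clock, 2 of 22 tested genes passed, in opposite directions (9.09%, against 1.62% of all genes, median -0.19). Against Nr1d1 stood Cry2, a cryptochrome of the repressing limb, with 62, 59.9 and 72.2 CPM with vehicle, 107, 83.4 and 97.4 with ISO, 56.1, 55.2 and 58.7 with Lip and 258, 167 and 205 with Lip+ISO and an interaction of 1.32 ± 0.20 (edgeR adjusted p = 0.00486). The Cry2 level of every Lip+ISO library was above that of every other library. Arntl, the activator BMAL1 that Rev-erbα represses, rose from 26.4, 23.7 and 21.2 to 119, 96.8 and 91 CPM without and from 22.5, 24.4 and 27.9 to 103, 113 and 134 with the inhibitors. Its interaction was 0.12 ± 0.19 (edgeR adjusted p = 0.82), a value within its error of 0. Nr1d2 (-0.26 ± 0.15), Per1 (-0.26 ± 0.18), Dbp (-0.55 ± 0.34), Csnk1d (0.36 ± 0.13) and Nfil3 (0.30 ± 0.20) did not pass (edgeR adjusted p = 0.48, 0.59, 0.53, 0.21 and 0.56), and the span of Dbp overlaps that of Sphk2.

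For several lists no member passed, where 1.62% of all genes did. Of 26 fatty acid oxidation genes 25 lay above 0, but the median was only 0.13 (edgeR, with 1 member at an unadjusted p under 0.05 and 1 passing by DESeq2), and Acsl1, an acyl-CoA synthetase, had 0.09 ± 0.20 (edgeR adjusted p = 0.9). Of 26 endoplasmic reticulum chaperone genes 25 lay above 0 as well, with a median of 0.21 (edgeR, 3 at an unadjusted p under 0.05, 1 by DESeq2). The chaperone BiP (Hspa5) had 0.40 ± 0.29 and Calr 0.20 ± 0.16 (edgeR adjusted p = 0.62 and 0.64), and the response to ISO passed for 2 members without and 9 with the inhibitors, all rises. For an interaction of 1 library per group, the SD of the list median was 0.211 and 0.246 on the log2 scale. The medians given rest on 3 libraries per group, so this SD overstates their error. The lists themselves were not tested.

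Of 23 lipogenesis and triglyceride synthesis genes 0 passed (edgeR, median 0.21, 9 at an unadjusted p under 0.05, 2 by DESeq2), with 0.21 ± 0.19 for Scd1 and -0.11 ± 0.17 for Gpd1 (edgeR adjusted p = 0.69 and 0.83). Of 27 genes of lipolysis and its regulators 0 passed (edgeR, median -0.08, 4 and 1). Among the targets of the drugs, Pnpla2 had 0.43 ± 0.22 and Lipe -0.30 ± 0.21 (edgeR adjusted p = 0.43 and 0.58). Of 26 NF-kappa-B and cytokine genes 0 passed (edgeR, median -0.28, 9 and 2), with -0.47 ± 0.11 for the macrophage growth factor Csf1 (edgeR adjusted p = 0.0613, DESeq2 adjusted p = 0.00217).

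Levels without the agonist enter the interaction too, as the β3-adrenergic receptor gene Adrb3 shows. Adrb3 had 161, 152 and 236 CPM with vehicle, 36.2, 21.7 and 28.3 with ISO, 77.6, 70.6 and 91.3 with Lip and 23.3, 27.7 and 37.2 with Lip+ISO. Its fall was -2.67 ± 0.23 without and -1.44 ± 0.22 with the inhibitors (interaction 1.23 ± 0.31, edgeR adjusted p = 0.0706, DESeq2 adjusted p = 0.00331). The stimulated groups overlapped (Lip+ISO minus ISO 0.04), and every Lip library was below every vehicle library. Rasd1, a small G protein of the Ras family, had 200, 151 and 174 CPM with vehicle, 35.3, 26.6 and 30.8 with ISO, 100, 76.1 and 64.2 with Lip and 15.1, 17.7 and 20.5 with Lip+ISO. It was lowered by the inhibitors alone (Lip minus vehicle -1.13, edgeR adjusted p = 0.0331) and fell with ISO in both states, with an interaction of 0.33 ± 0.24 (edgeR adjusted p = 0.61), and its span overlaps that of Med9.

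**Figure D5:**
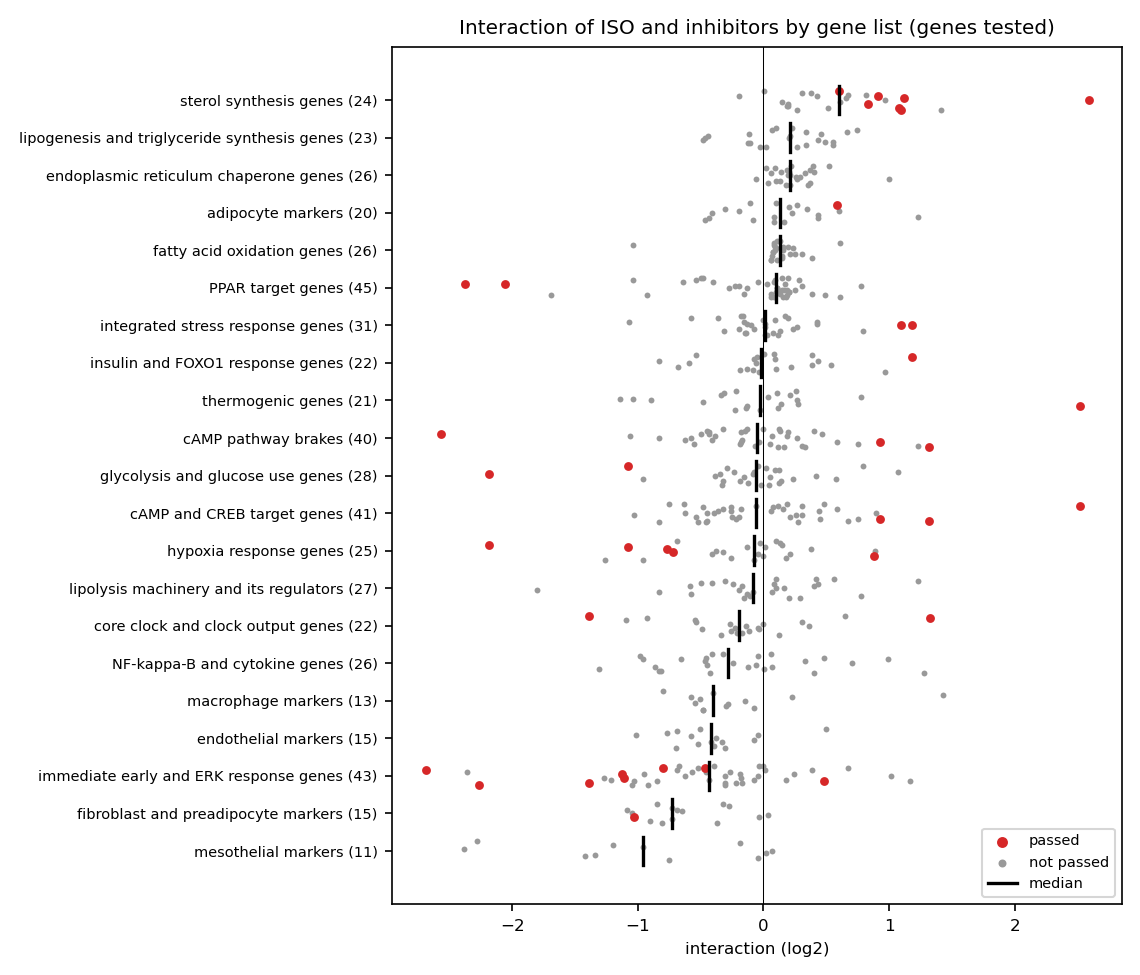
Interaction (horizontal axis, log2) of each tested member of 21 gene lists, with the number of genes tested in brackets. Red points passed, grey points did not, and black bars are medians. Lists run from the mesothelial markers (median -0.96) at the bottom to the sterol synthesis genes (0.60) at the top.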

How the data were processed

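RNA was measured in 12 libraries of cultured mouse mature adipocytes, 3 each of vehicle, ISO, Lip and Lip+ISO. The authors deposited 1 table of raw counts per gene. Per the labels and the study's methods, TruSeq libraries were aligned with STAR 2.4.2a to mm9, reads at 1 position were collapsed by length with HOMER, and reads over whole RefSeq genes were counted with iRNA-seq, so a count is not a molecule. Whether counting used strand is not given in the sources used here, so genes with overlapping spans cannot be told apart. Coordinates are those of the table, mm9.

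Counts were taken as deposited. Genes were kept by filterByExpr (13543 of 20295), totals were scaled by TMM, and the interaction was tested with edgeR 4.0.16 (quasi-likelihood F-test, 2-sided, R 4.3.3) on 4 group means with Benjamini-Hochberg adjustment. Genes that passed had an adjusted p of at most 0.05, and called genes also at least 1 log2 unit. CPM values use the scaled totals. The SE after ± is the size of the log2 change divided by the square root of its F statistic. It is thus approximate, and the SE of an interaction need not follow from those of its responses. DESeq2 1.42.0, limma-voom (limma 3.58.1), other scalings and filters, a block for the replicate number and left-out libraries were the alternatives. The procedure was tested on simulated counts. Named genes are the 10 largest called interactions in each direction among genes of at least 5 CPM in a group, all reversed called genes, up to 4 genes that passed and the 2 with most counts that did not in each list, and a set list. The remaining genes that passed in a list of few are named to complete its count. Some members of the lists are counted but are not reported here by name. The members, lists and tests were chosen with earlier results of these data known. Promoter windows came from RefSeq (GRCm38.p6), with 10210 of 13543 tested genes matched by symbol, and no coordinates were converted between builds.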

Additional observations from a re-analysis of the deposited data

Results flagged for a closer look

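A test of the difference between the responses with and without inhibitors (the interaction, edgeR) passed for 122 genes with a positive and 98 with a negative value. Among them, 10 called genes responded in opposite directions in both states. The interaction was -2.38 for Pdk4, -2.29 for Map3k8, -2.12 for Ccrn4l, -1.39 for Nr1d1, -1.33 for Zfpm2, -1.25 for Plxna2, -1.11 for Nab2 and -1.08 for Adam19, which rose without and fell with the inhibitors, and 1.10 for Stard4 and 1.23 for 2810474O19Rik, which did the opposite. Groups of 3 are too small for a check of single outlying samples, and none was made. The cause of these differences was not tested.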

How the results depend on the processing

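The 220 interactions that passed kept their direction in every alternative, which is no further test because the same libraries chose them. The counts did change. Called genes were 122 higher and 98 lower with no minimum size, 92 lower by DESeq2, and 131 lower in a fit with a replicate block. Genes that passed were 338 higher and 241 lower by DESeq2 and 427 and 471 with the block. By DESeq2, 13 of 24 sterol synthesis and 17 of 43 immediate early genes passed, where edgeR had 7 and 8. Under the block, weakened, lost, reversed, strengthened and gained responses numbered 49, 246, 63, 269 and 270. Of genes chosen by the averaged response, 107 of those that rose were larger with the inhibitors and 35 smaller under the block, and of those that fell 50 were larger and 2 smaller, or 25 larger with library totals alone. Egr2, Egr3, Fos, Dusp4, Insig1, Ppara, Irs2, Csf1 and Adrb3, which missed by edgeR, passed by DESeq2 and with the block (adjusted p of 0.0133, 0.0299, 0.0316, 0.0135, 0.0221, 0.0274, 0.000947, 0.0121 and 0.00901 with the block), and Dbp passed with the block (0.0408). The labels do not call the replicate numbers pairs, and the main test did not treat them as such. Same-numbered libraries nonetheless deviated together, with correlations of 0.0373 to 0.369, 17 of 18 of them over 0.1. Different-numbered libraries had -0.329 to 0.0853, and 10 of 12 libraries correlated best with their own number. Genes that did not pass in the main test were thus judged on a spread that keeps this shared part.

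Leaving out 1 library, or 1 replicate number in all groups, gave 6 to 66 called higher, 9 to 73 called lower, 6 to 177 passed higher and 9 to 151 passed lower. In the 3 fits without 1 replicate number, the classes ranged from 2 to 4 (weakened), 2 to 14 (lost), 2 to 9 (reversed), 5 to 56 (strengthened) and 3 to 30 (gained). In the same 3 fits, averaged rises were larger in 5 to 48 and smaller in 3 to 8, and averaged falls larger in 2 to 6. The lymphocyte list median ran from -1.08 to 0.0618. Where only 2 libraries per group remain, fewer samples enter each test. The causes of the other shifts were not tested.

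Signs turned only for named genes whose interaction had not passed. On the linear CPM scale the interaction was -71.2 for Pck1, -18.3 for Acsl1, 31.8 for Slc3a2, 112 for Nr4a1 and 592 for Nr4a3. Aldoa had 0.000921 with DESeq2 size factors and 0.000972 by DESeq2, and with library totals Pkm had -0.020 and Gnas -0.0016. Leave-out ranges crossed 0 for Pck1 (-0.33 to 0.53), Lpl (-0.0920 to 0.34), Acsl1 (-0.12 to 0.34), Ucp1 (-0.14 to 0.89), Aldoa (-0.0819 to 0.0296), Pkm (-0.12 to 0.18), Slc3a2 (-0.23 to 0.0475), Scd1 (-0.015 to 0.43), Gnas (-0.0260 to 0.16), Prkar2b (-0.32 to 0.00016), Nr4a2 (-0.27 to 0.37) and Nr4a3 (-0.48 to 0.37). The median interaction of all genes was -0.02, and -0.09 with library totals. With 3 libraries per group and a biological coefficient of variation of 0.163, small interactions could not be detected.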
